A study of Mus musculus with 7 samples.

Results

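The genes described here encode the enzymes of the citric acid cycle, of the entry of pyruvate into it and of the breakdown of branched-chain amino acids. They were listed by name, with earlier results of these data known. The cycle was represented by 19 genes, pyruvate entry by 7 and branched-chain breakdown by 11, which makes 37 of the 19938 genes measured by a row with 1 gene symbol. Every gene listed was found, and all 37 passed the filter on low values, which kept 12102 genes that reached the array's median intensity on at least 1 array. Where a gene had more than 1 row (Suclg2 and Hibadh here), the row of highest mean log2 intensity stood for it.

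The tissue was the left plantaris of C57BL/6J males, 5 months old, a fast muscle of the calf. All groups had first spent 2 weeks in hind limb suspension, in which the hind limbs bear no weight. The control group (d0) was sampled when suspension ended, and the others after 1, 3, 5, 7, 10 or 14 days of regrowth under load. Each of these 7 groups is 1 Affymetrix Mouse Gene 1.0 ST array of RNA pooled from 6 animals, so a ratio between 2 days carries neither error nor p-value, and precision is limited by how few arrays there are. Where 7 intensities of a gene follow each other, they stand in the order d0, d1, d3, d5, d7, d10, d14. The d0 group carries the suspension too, so no ratio here sets suspended muscle against muscle that was never unloaded.

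The citric acid cycle runs in the mitochondrial matrix. It oxidises acetyl-CoA to carbon dioxide and hands the electrons to the respiratory chain as NADH and as reduced flavin. Pyruvate from glycolysis enters as acetyl-CoA through the pyruvate dehydrogenase complex, which pyruvate dehydrogenase kinases switch off by phosphorylation. Leucine, isoleucine and valine are broken down to a large part in skeletal muscle, by a transaminase, a dehydrogenase complex built like that of pyruvate, and then separate routes that end in acetyl-CoA or succinyl-CoA.

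Muscle fibre markers, among them Acta1, Ckm, Myh4 and Myh1, were all present (8 of 8 kept) with a summed intensity between 116122 and 124378. No marker of any list had an intensity of 0. Slow fibre markers (9 of 9 kept) summed to 4815 at d0 and to 9076 at d3, their highest. Macrophage markers (11 of 11) ranged from 3984 at d14 to 6793 at d1, and neutrophil markers (8 of 8) from 1241 at d0 to 8310 at d10. The ranges were 4108 to 5079 for adipocyte markers (6 of 9 kept), 14521 to 15924 for fibroblast markers (7 of 7), 4851 to 6201 for endothelial markers (7 of 7), 1181 to 1678 for satellite cell markers (5 of 6) and 1212 to 2033 for red cell markers (2 of 7). Array medians lay between 128.1 and 131.8. Many genes carry the same intensity, to the 1 decimal deposited, on 2 or more arrays, namely 6716 of the 12102 kept genes (55.5%) and 5 of the 37 (Sdhd, Pdhb, Pdhx, Pdk1 and Pdk4). How such equal values arose is not given in the sources used here, so small ratios between days may be coarser than their decimals. The median kept gene stood 0.048 (d5) to 0.10 (d1) above d0 on the log2 scale, and log2 differences from d0 had a robust SD among kept genes of 0.13 (d14) to 0.18 (d1).

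On the first day of loading most of these genes stood below their level at the end of suspension, and by day 10 nearly all stood above it. At d1 only 10 of the 37 lay above d0, against 70.9% of all kept genes. The number was 14 at d3 (65.5% of kept genes), 24 at d5 (61.1%), 33 at d7 (66%), and 35 at both d10 (72.2%) and d14 (71.3%). Of the 37, 18 had their lowest of 7 values at d1, against 10.6% of kept genes, and 16 had their highest at d10, against 21.3%. Levels below d0 at d1 and above d0 at d14 were found for 25 of the 37, against 11.5% of kept genes. These were 15 of 19 cycle genes, 8 of 11 branched-chain genes and 2 of 7 pyruvate entry genes.

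**Figure D1:**
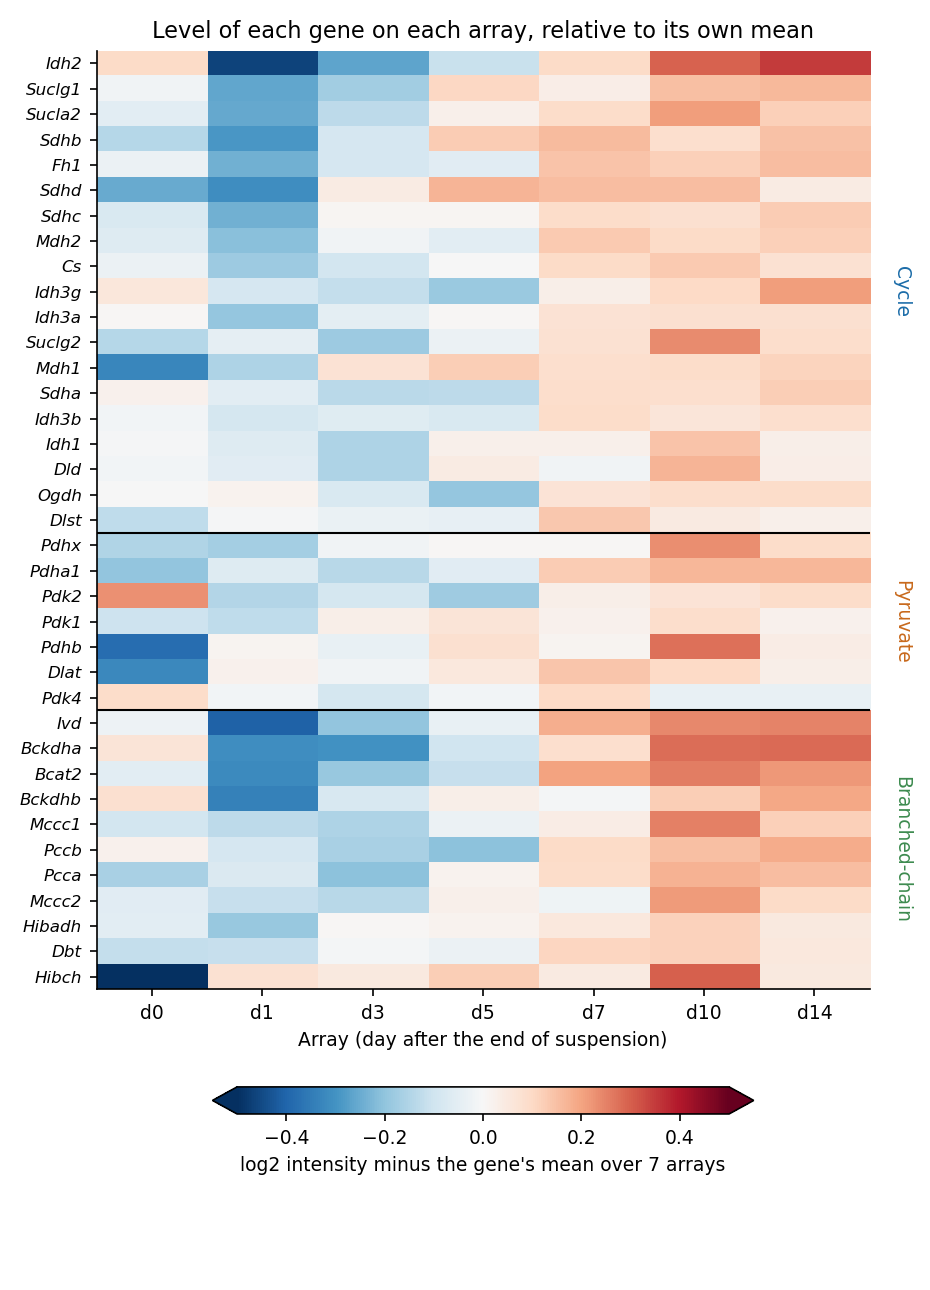
Heat map of the 37 genes (rows, sorted by slope within each group) on the 7 arrays (columns). Colour is the log2 intensity minus the gene's own mean over the 7 arrays, and colours end at 0.5 either way; the d1 column is the bluest among cycle and branched-chain genes, and d10 and d14 are mostly red.

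The differences were small. As the rule of size a ratio of 5 to 4 was taken (0.32 on the log2 scale). By it, 3 genes were higher than d0 at d1 (15.8% of kept genes), namely Pdhb, Dlat and Hibch, and 5 were lower (3.07%), namely Idh2, Pdk2, Bckdha, Bckdhb and Ivd. At d3 there were 3 higher (9.96%) and 2 lower (2.8%), and at d5 there were 5 higher (8.59%) and 1 lower (3.35%). At d7, 6 were higher (12.4%) and 0 lower (2.86%), at d10, 10 were higher (13.3%) and 0 lower (2.39%), and at d14, 5 were higher (7.25%) and 0 lower (1.8%). After quantile normalization 6 in place of 10 passed at d10, a setting for which the share of kept genes is not given here. Set against d1 in place of d0, 13 genes were higher by this rule at d10 (5.29% of kept genes) and 12 at d14 (3.43%). By the same rule 0 of the 37 were lower than d1 at d10 (5.19% of kept genes) or at d14 (6.87%). Of any size, 36 of the 37 lay above d1 at d10 (45.2% of kept genes) and 35 at d14 (40.9%), a comparison that does not involve the d0 array. It rests on the d1 array instead, and a low level on that day and a peculiarity of that array cannot be told apart.

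The medians of the cycle and branched-chain genes followed the same course. Against d0 the 6 reloaded days, in order, gave cycle medians of -0.14, -0.055, 0.029, 0.12, 0.16 and 0.17. The branched-chain genes had medians of -0.10, -0.080, 0.063, 0.13, 0.26 and 0.21 on these days. For pyruvate entry the medians were -0.019, 0.13, 0.15, 0.15, 0.36 and 0.24, below 0 at d1 only. At d1 the genes of this group were spread from -0.38 (Pdk2) to 0.39 (Pdhb). The median of all kept genes was 0.10, 0.066, 0.048, 0.075, 0.096 and 0.076. Between d1 and d14 the cycle median was 0.27, the branched-chain median 0.25 and the pyruvate entry median 0.15, against -0.0029 for all kept genes. Whether the 3 groups differ from each other was not tested.

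**Figure D2:**
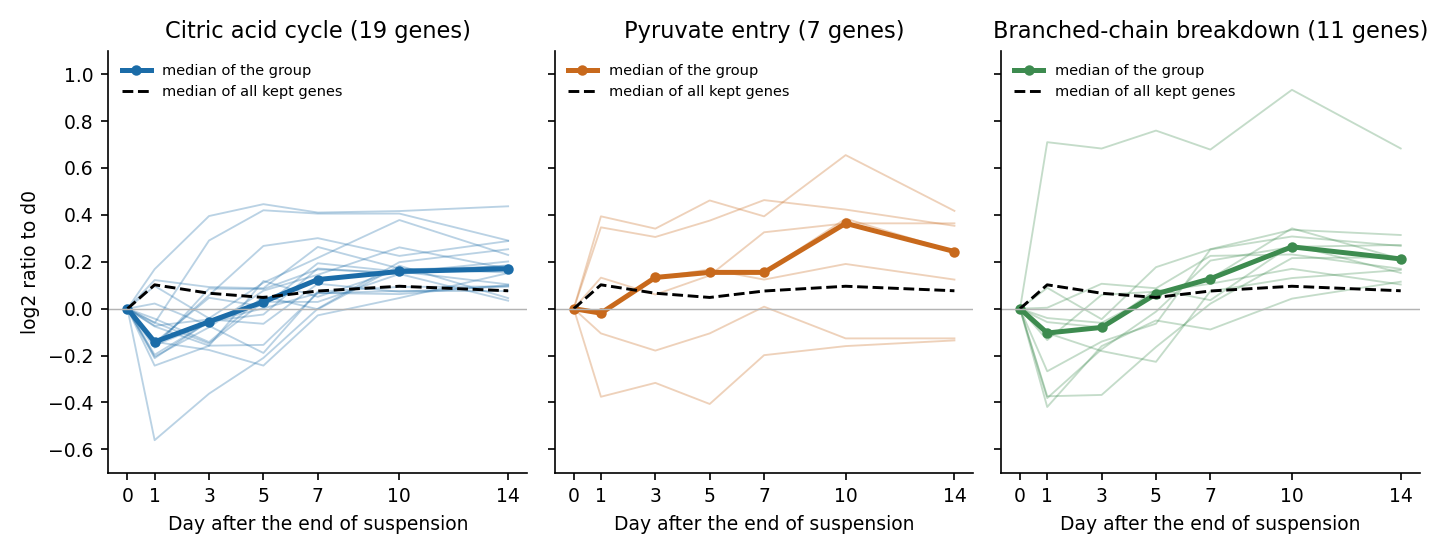
Log2 ratio to d0 (vertical axis) by day after the end of suspension (horizontal axis), 1 array per day. Thin lines are single genes, thick lines the group's median and dashed lines the median of all kept genes; cycle and branched-chain medians start below the dashed line at d1 and end above it, at 0.17 and 0.21.

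A trend over the 6 reloaded days was tested with limma, by regressing a gene's log2 intensity on log2(day + 1), with Benjamini-Hochberg adjustment over the 12102 kept genes. Of the 37 genes, 2 rose at an adjusted p of 0.05, Idh2 and Ivd, and 0 fell. Among all kept genes 19 rose (0.157%) and 24 fell (0.198%). All 37 slopes were above 0, against 47.9% of kept genes. Without the d3 array or the d7 array, or after quantile normalization, the slope of Pdk4 was just below 0, as was that of Hibch without d10. At an unadjusted p of 0.05, 26 of the 37 had a positive slope and 0 a negative one, against 6.88% and 6.39% of kept genes. These 26 were 13 of 19 cycle, 3 of 7 pyruvate entry and 10 of 11 branched-chain genes. Without the d1 array the 26 became 19, and without d10 they became 18. The share of all kept genes in these reduced fits is not given here.

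Both calls were close to the threshold, with a limma adjusted p of 0.0469 each. Neither held when any of the 6 arrays was left out, with adjusted p between 0.0987 and 0.303 for Idh2 and between 0.100 and 0.314 for Ivd. With no filter on low values they were 0.0874 and 0.0917. With quantile normalization or a stricter filter both stayed under 0.05, and Bcat2, Bckdha, Bckdhb and Sucla2 passed as well. The error of this fit is made of pools of different animals on different days and of any departure from a straight line. Over all 7 arrays, d0 included, limma called 0 of the 12102 genes rising (0%) and 0 falling (0%) at an adjusted p of 0.05. The smallest adjusted p there was 0.0821, for Neto2, and at an unadjusted p of 0.05, 1112 genes had positive and 176 negative slopes. Of the 37 genes, 21 were among those with a positive slope (9.19% of kept genes) and 0 among those with a negative one (1.45%). The 21 became 13 without d1, 12 without d10 and 11 without d14, again with no share of kept genes given for the reduced fits.

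**Figure D3:**
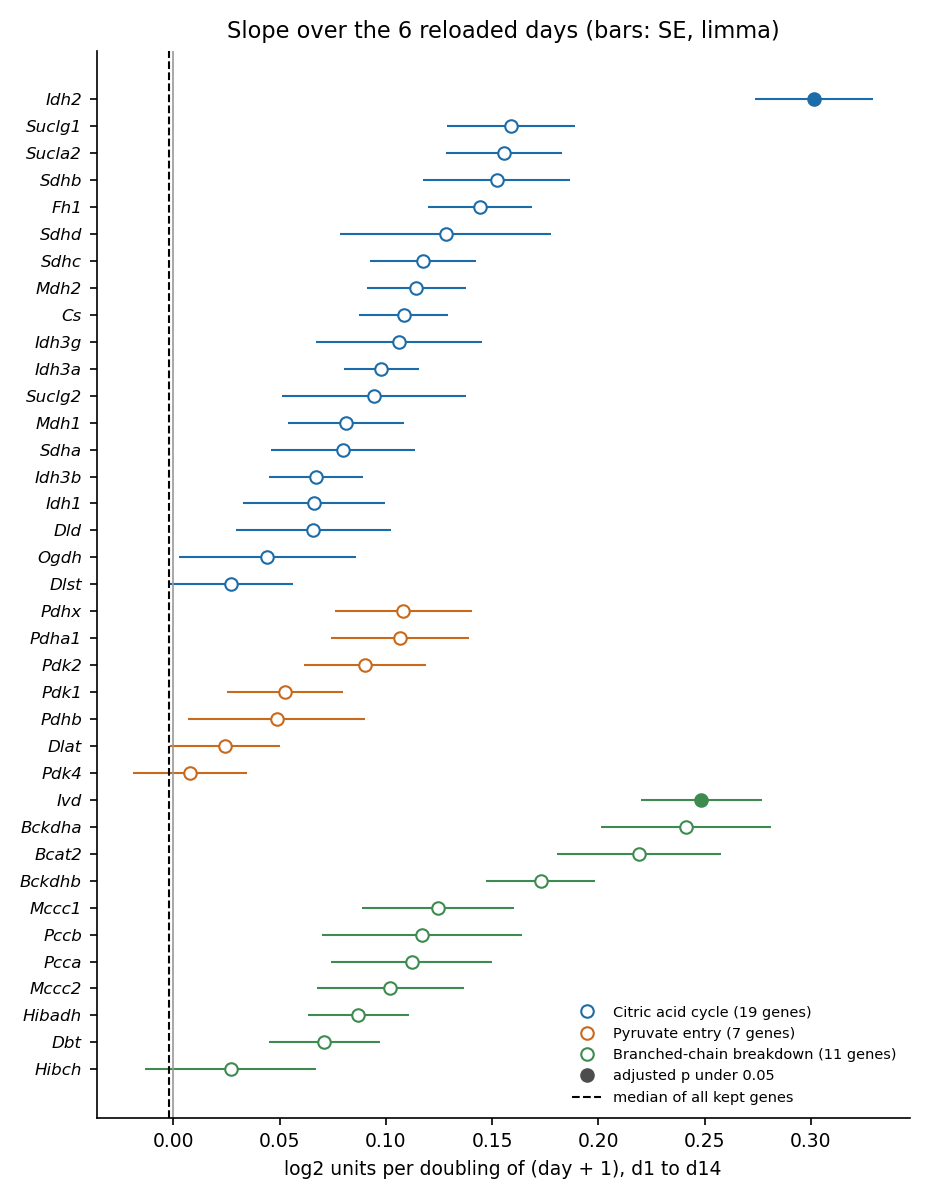
Slope of each gene over d1 to d14 (horizontal axis, log2 units per doubling of day + 1) with its limma SE, n = 6 arrays. Filled points (Idh2 and Ivd) had an adjusted p under 0.05, the dashed line is the median of all kept genes, and all 37 points lie to the right of 0.

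Promoter sequence was set beside these courses. RefSeq's table on GRCm38.p6 held promoters of 34 of the 37 genes, each from 250 bases before to 50 after a transcript's start. On both strands, the ERR element TNAAGGTCA, bound by the oestrogen-related receptors, lay in 1 of the 34 genes (Sdhd), against 1.43% of all genes in the table and 1.28% of its promoters. The NRF1 element, bound by the nuclear respiratory factor, lay in 6 of the 34 (Dld, Hibadh, Pccb, Sdha, Sdhd and Sucla2), against 5.19% of genes and 4.6% of promoters. A position that matched on both strands was counted once, and the ERR and NRF1 matches of Sdhd do not overlap. The promoters of Idh2 (chr7:80115301-80115600, minus strand) and Ivd (chr2:118861744-118862043, plus strand) are printed because these genes passed the trend test. Those of Sucla2 (chr14:73552536-73552835, plus strand) and Sdhd (chr9:50603800-50604099, minus strand) show the matches, and Sdhd was chosen after its matches were seen. Bckdha, Bcat2, Bckdhb and Suclg1, with steeper slopes over d1 to d14 than Sucla2 but no match, are not printed. Capitals mark the matched motifs, reading 5′ to 3′ along the gene's strand.
Idh2: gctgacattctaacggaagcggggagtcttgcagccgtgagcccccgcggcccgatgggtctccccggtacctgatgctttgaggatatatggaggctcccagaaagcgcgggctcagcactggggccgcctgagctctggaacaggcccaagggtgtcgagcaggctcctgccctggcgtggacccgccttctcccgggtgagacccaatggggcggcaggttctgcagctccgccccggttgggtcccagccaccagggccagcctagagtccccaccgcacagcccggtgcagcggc
Ivd: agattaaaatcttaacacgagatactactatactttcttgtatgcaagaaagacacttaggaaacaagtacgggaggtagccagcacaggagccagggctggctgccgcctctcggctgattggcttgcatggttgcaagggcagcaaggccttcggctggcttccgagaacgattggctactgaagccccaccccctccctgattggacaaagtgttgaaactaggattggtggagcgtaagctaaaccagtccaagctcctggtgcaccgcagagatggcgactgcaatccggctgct
Sucla2: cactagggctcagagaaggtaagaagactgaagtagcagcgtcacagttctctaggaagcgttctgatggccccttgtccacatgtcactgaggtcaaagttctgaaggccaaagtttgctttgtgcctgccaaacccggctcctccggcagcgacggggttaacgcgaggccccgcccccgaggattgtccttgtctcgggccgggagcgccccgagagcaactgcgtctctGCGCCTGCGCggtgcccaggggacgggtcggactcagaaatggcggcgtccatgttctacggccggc
Sdhd: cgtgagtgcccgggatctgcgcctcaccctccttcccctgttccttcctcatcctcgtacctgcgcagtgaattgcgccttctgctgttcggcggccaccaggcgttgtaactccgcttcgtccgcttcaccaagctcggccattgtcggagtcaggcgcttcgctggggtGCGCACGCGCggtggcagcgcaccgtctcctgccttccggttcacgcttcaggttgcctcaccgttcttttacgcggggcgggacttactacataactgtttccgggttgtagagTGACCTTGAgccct
Neither motif was found in the Idh2 or the Ivd window, which says only that these letters are not in those 300 bases. In Sucla2 the NRF1 element starts 17 bases before the start of transcription (position -17). In Sdhd the NRF1 element starts at -79 and the ERR element at 37 after the start, both on the opposite strand.

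Entry of acetyl-CoA into the cycle is catalysed by citrate synthase, the product of Cs and a common measure of mitochondrial content in muscle. Its intensity was 7255 at d0 and then 6515, 6941, 7384, 7908, 8099 and 7795. The d1 value was the lowest, and d7, d10 and d14 all lay above d0. Its slope over the reloaded days was 0.11 (SE 0.021) per doubling of day + 1, with a limma adjusted p of 0.103.

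Isocitrate is oxidised by an NAD-dependent enzyme made of Idh3a, Idh3b and Idh3g products, and by the NADP-dependent enzymes of Idh2 (mitochondrial) and Idh1 (cytosolic). Idh2 had the largest slope of the 37 genes and ranked 12 among the 12102 kept genes. Its intensity was 2435 at d0 and then 1651, 1894, 2105, 2435.5, 2794 and 2903. It was lowest at d1, was back at the d0 level at d7 and exceeded it at d10 and d14, each reloaded day lying above the one before. Its d1 to d0 ratio was -0.56 on the log2 scale, and d14 was 1.76-fold above d1. The slope was 0.30 (SE 0.028), limma adjusted p 0.0469. Idh1 was 745 at d0 and then 715.5, 672, 760.5, 760.3, 826 and 763, with its lowest value at d3 and its highest at d10, and a slope of 0.066 (SE 0.033).

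The catalytic subunit gene of the NAD-dependent enzyme, Idh3a, had intensities of 6257 at d0 and then 5460.4, 6021, 6264, 6549, 6593 and 6591. Its slope was 0.10 (SE 0.018), limma adjusted p 0.0924. The regulatory subunit gene Idh3g was 7905 at d0 and then 7167, 6997, 6682, 7751, 8159 and 8783, lowest at d5 and highest at d14. Idh3b, the other regulatory subunit, stood between 7515 at d1 and 8511.5 at d7. So Idh3a and Idh3b were lowest at d1, and Idh3g at d5.

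The 2-oxoglutarate dehydrogenase complex, which makes succinyl-CoA, had small slopes. Ogdh, its decarboxylase, was 5616 at d0 and then 5703, 5339, 4927, 5908, 5989 and 5998, with the lowest value at d5 and a slope of 0.044 (SE 0.042). Dlst, its succinyltransferase core, was 1498 at d0 and then 1629.9, 1596.5, 1591, 1797, 1686 and 1666, above d0 on all 6 later days, with the smallest slope of the cycle genes, 0.027 (SE 0.029). Dld, the dihydrolipoamide dehydrogenase shared with the pyruvate and branched-chain complexes, was 1843.5 at d0 and then 1789.8, 1670.2, 1913, 1840.4, 2093 and 1902, and its slope was 0.066 (SE 0.036). The limma adjusted p of the 3 slopes lay between 0.518 and 0.811.

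Succinyl-CoA ligase pairs the common alpha subunit of Suclg1 with the ATP-forming beta subunit of Sucla2 or the GTP-forming one of Suclg2. Suclg1 was 1540.4 at d0 and then 1302, 1380.4, 1672, 1595.5, 1729.5 and 1745. Sucla2 was 2626 at d0 and then 2279, 2486, 2769.7, 2903, 3148 and 2954.5. Both were lowest at d1 and above d0 from d5 on, with slopes of 0.16 (SE 0.030) and 0.16 (SE 0.027) and limma adjusted p of 0.0985 and 0.089. Suclg2 was 961.5 at d0 and then 1028, 934, 1038, 1117, 1249.6 and 1127, lowest at d3 rather than d1, with a slope of 0.095 (SE 0.043). The second row of Suclg2 followed the same course at a lower level, with log2 intensities of 9.43 at d3 and 9.81 at d10 against 9.87 and 10.29 in the row used. Rows of near-identical sequence can share signal, so which transcript each row measured is uncertain.

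Succinate dehydrogenase belongs to the cycle and to the respiratory chain, and its 4 subunit genes did not share 1 course. The flavoprotein gene Sdha was 5579 at d0 and then 5294, 5001, 5012, 5844, 5824 and 5983, lowest at d3 and d5. The iron-sulfur subunit gene Sdhb was 2807 at d0 and then 2527, 2921, 3379.5, 3458, 3281 and 3429. The membrane anchors were Sdhc, at 3214 at d0 and then 2864, 3411.5, 3406, 3609.8, 3577 and 3696, and Sdhd, at 1822 at d0 and then 1746, 2228, 2437, 2413, 2413 and 2228. For Sdhb, Sdhc and Sdhd the d1 value was the lowest of 7 and all days from d3 on exceeded d0. Sdhd had its highest value already at d5 (0.42 above d0 on the log2 scale), when Sdha was at -0.15. The slopes over the reloaded days were 0.080 (SE 0.034), 0.15 (SE 0.035), 0.12 (SE 0.025) and 0.13 (SE 0.050) for Sdha, Sdhb, Sdhc and Sdhd, with limma adjusted p from 0.126 to 0.393.

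Fumarase and the malate dehydrogenases close the cycle. Fh1, fumarase, was 2903 at d0 and then 2508, 2798, 2854, 3269.6, 3217 and 3300.3, with a slope of 0.14 (SE 0.024) and a limma adjusted p of 0.0814. Mdh2, the mitochondrial malate dehydrogenase, was 9919.8 at d0 and then 8970.0, 10245, 9985, 11346, 11066 and 11254, and was lowest at d1. Mdh1, the cytosolic enzyme of the malate-aspartate shuttle, was 3747 at d0 and then 4211, 4927, 5103, 4978, 5000.0 and 5071. It differed from Mdh2 in lying above d0 already at d1 (0.17 against -0.15), and it stood between 0.40 and 0.45 above d0 from d3 on. It was 1 of 7 of the 37 genes above d0 on all 6 later days, as 39% of kept genes were.

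In 3 of its 4 genes here the pyruvate dehydrogenase complex stood above d0 on all 6 later days, as did 39% of kept genes. At d1 alone 70.9% of kept genes lay above d0. The decarboxylase alpha subunit gene Pdha1 was 3274 at d0 and then 3588, 3414, 3611, 4104, 4213 and 4213.5. The beta subunit gene Pdhb was 841.5 at d0 and then 1106, 1066, 1159, 1106, 1325 and 1124. Dlat, the acetyltransferase core, was 1772 at d0 and then 2254, 2191, 2299, 2443, 2375.5 and 2264. In Pdha1, Pdhb and Dlat d0 was the lowest of the 7 arrays, and the d1 ratios were 0.13, 0.39 and 0.35 on the log2 scale. Pdhb passed the rule of size on all 6 later days, as did Hibch and 2.7% of kept genes. Pdhx, which anchors the dihydrolipoamide dehydrogenase to the core, was 526 at d0 and then 519, 578, 586, 586, 686.5 and 623, near d0 at d1 and highest at d10.

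From d1 on the slopes were 0.11 (SE 0.033) for Pdha1, 0.049 (SE 0.042) for Pdhb, 0.024 (SE 0.026) for Dlat and 0.11 (SE 0.032) for Pdhx, with limma adjusted p of 0.236 to 0.815. A level set by d0 alone rests on 1 array, and for these genes an effect of suspension and a peculiarity of the d0 array cannot be told apart.

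The kinases that inhibit the complex had courses of their own. Pdk2 was 7392 at d0 and then 5698, 5936.5, 5577.5, 6443, 6619 and 6730.5. It was highest at d0 and below it on all 6 later days, the only one of the 37 genes with this course, which 7.68% of kept genes shared. Its ratio to d0 was lowest at d5 (-0.41) and -0.14 at d14. Pdk4, the isoform induced by fasting and by FoxO factors, was 7564 at d0 and then 7031, 6683, 7031, 7609, 6928 and 6929 and had the smallest slope of the 37 genes, 0.0079 (SE 0.027), limma adjusted p 0.962. Pdk1, the isoform induced by hypoxia, was 598 at d0 and then 588, 656, 671, 651.5, 682 and 651.5, lowest at d1, with a slope of 0.053 (SE 0.027).

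**Figure D4:**
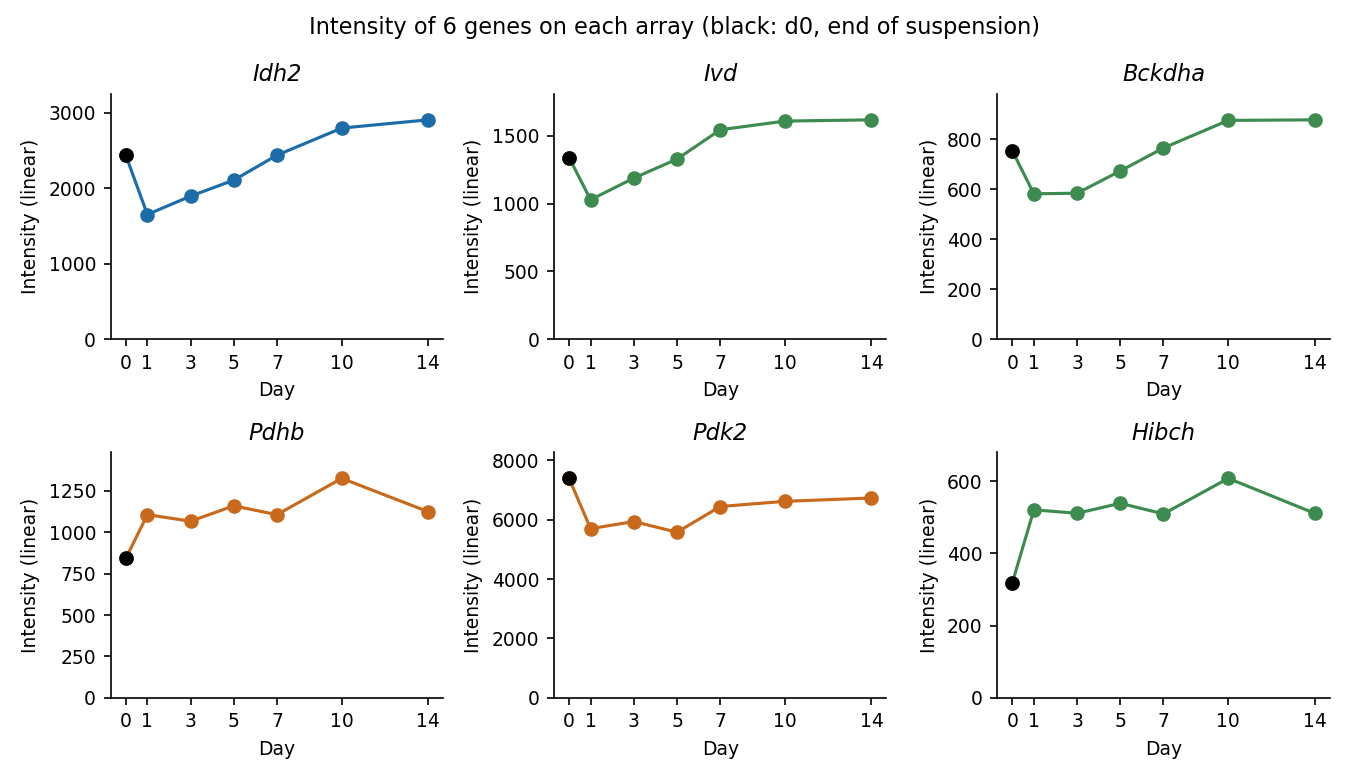
Intensity on a linear scale from 0 (vertical axis) by day (horizontal axis) for 6 genes, 1 array of 6 pooled animals per point, with d0 in black. Idh2, Ivd and Bckdha were lowest at d1 and above d0 at d14, Pdhb and Hibch were lowest at d0, and Pdk2 was highest at d0.

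Branched-chain breakdown held the steepest slopes after Idh2. The first step, transamination by the mitochondrial enzyme of Bcat2, had intensities of 731 at d0 and then 607, 663, 699, 870.4, 904 and 879. The d1, d3 and d5 arrays lay below d0, and d7, d10 and d14 above it. The slope was 0.22 (SE 0.039), with a limma adjusted p of 0.089.

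The branched-chain keto acid dehydrogenase complex commits the carbon skeletons to oxidation. Its decarboxylase alpha subunit gene Bckdha was 755 at d0 and then 582.5, 585, 674, 766, 876 and 878.5. It was low at d1 and at d3 alike (-0.37 and -0.37 against d0) and 1.51-fold above d1 at d14. The beta subunit gene Bckdhb was 716 at d0 and then 536, 641, 692, 674, 738 and 776. Both were lowest at d1 and highest at d14, with slopes of 0.24 (SE 0.040) and 0.17 (SE 0.026) and limma adjusted p of 0.0799 and 0.0615. Dbt, the acyltransferase core of the same complex, was 991 at d0 and then 994, 1067, 1053, 1158.5, 1163 and 1115, not below d0 on any day, with a slope of 0.071 (SE 0.026). At d1 the ratios to d0 were thus -0.37, -0.42 and 0.0041 for the 3 parts of the complex. On that day Pdha1, Pdhb and Dlat of the pyruvate complex were all above d0, as 70.9% of kept genes were, while its Pdhx was at -0.019.

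Leucine is broken down further by isovaleryl-CoA dehydrogenase (Ivd) and methylcrotonyl-CoA carboxylase (Mccc1 and Mccc2). Ivd was 1339 at d0 and then 1028, 1188, 1327, 1544, 1608 and 1617. Each reloaded day lay above the one before, d0 was passed at d7, and d14 was 1.57-fold above d1. The slope was 0.25 (SE 0.029), limma adjusted p 0.0469. Mccc1, the biotin-bearing subunit, was 392.5 at d0 and then 382, 376, 410.0, 429, 498 and 455, and Mccc2, its partner, was 440.1 at d0 and then 423, 416, 466, 451, 531.5 and 489. Both were lowest at d3 and highest at d10, with slopes of 0.12 (SE 0.036) and 0.10 (SE 0.035).

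The valine route runs through 3-hydroxyisobutyryl-CoA hydrolase (Hibch) and 3-hydroxyisobutyrate dehydrogenase (Hibadh). Hibch had the largest difference from d0 of all 37 genes. Its intensity was 318 at d0 and then 520.4, 511, 538.5, 509, 607.5 and 511. The reloaded days lay 0.68 to 0.93 above d0 on the log2 scale, while the slope among them was 0.027 (SE 0.040), limma adjusted p 0.89. What set Hibch and Pdhb apart was thus the d0 array against all the others. Hibadh was 4653.5 at d0 and then 4241, 4847, 4894, 5009, 5235 and 4999, lowest at d1, with a slope of 0.087 (SE 0.024). The second row of Hibadh was dim, with a mean log2 intensity of 5.09 against 12.24.

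Propionyl-CoA from isoleucine and valine is carboxylated by the enzyme of Pcca and Pccb on its way to succinyl-CoA. Pcca, the biotin-bearing alpha subunit, was 758 at d0 and then 806, 735, 857, 904, 957 and 942. Pccb, the beta subunit, was 579 at d0 and then 539, 511, 495, 610.1, 634 and 649.7. The alpha subunit was lowest at d3 and above d0 from d5 on, and the beta subunit was lowest at d5 and above d0 from d7 on. Their slopes were 0.11 (SE 0.038) and 0.12 (SE 0.047), with limma adjusted p of 0.283 and 0.362.

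Further genes of the same pathways gave 0 calls at an adjusted p of 0.05 in either direction by limma over d1 to d14. Of 18 listed genes around the cycle 16 were kept, and at an unadjusted p of 0.05, 3 had a positive slope (6.88% of kept genes) and 0 a negative one (6.39%). Their median slope was 0.048, with Sdhaf1, an assembly factor of succinate dehydrogenase, at 0.10 (SE 0.027) and Slc25a11, the 2-oxoglutarate carrier, at 0.083 (SE 0.026). Of 12 further pyruvate genes 9 were kept, with 4 positive slopes and 1 negative one at that p, beside the same 6.88% and 6.39% of kept genes, and a median of 0.045. The largest were those of Pdpr, the regulatory subunit of the pyruvate dehydrogenase phosphatase, at 0.16 (SE 0.035), Lipt2 of lipoic acid attachment, at 0.15 (SE 0.025), and Ldhb, the lactate dehydrogenase subunit of oxidative tissues, at 0.12 (SE 0.025). Slc16a1, the lactate and ketone carrier MCT1, had the negative slope, -0.14 (SE 0.041).

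Of 18 further branched-chain gene symbols 15 were kept, and Mut and Mmut among the 18 name the same gene, measured as Mmut. At an unadjusted p of 0.05, 9 of the 15 had a positive slope (6.88% of kept genes) and 0 a negative one (6.39%). Their median slope was 0.11, near that of the 11 branched-chain genes above (0.12), against -0.0022 for all kept genes. Echs1, the short-chain enoyl-CoA hydratase, had the largest, 0.23 (SE 0.034), with intensities of 1164 at d0 and then 846, 950.0, 1185, 1192, 1306 and 1281 and a limma adjusted p of 0.0609. Like Ivd it was lowest at d1, and it passed d0 at d5. Ppm1k, the phosphatase that activates the keto acid dehydrogenase, was 265 at d0 and then 228, 236, 267, 285, 340.2 and 301, with a slope of 0.19 (SE 0.041). Bckdk, the kinase that inhibits it, was 2852 at d0 and then 2478, 2558, 2564, 3033, 2921 and 3184, with a slope of 0.13 (SE 0.031). The kinase and the phosphatase were both lowest at d1 and both above d0 at d14. Aldh6a1 of valine breakdown had a slope of 0.17 (SE 0.035) and Oxct1, which activates ketone bodies, one of 0.15 (SE 0.040). Klf15, a transcription factor known to induce branched-chain breakdown in muscle, was 547 at d0 and then 460.1, 482, 420.4, 521, 519.7 and 547, lowest at d5 and not above d0 on any day, with a slope of 0.087 (SE 0.044).

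Markers of other cell types differed between days as well. Macrophage markers had a median of 0.43 above d0 at d1, when the cycle genes had one of -0.14, and of -0.053 at d14, when the cycle genes had one of 0.17. For muscle fibre markers the median was -0.087 on day 1 and -0.0096 on day 14, and their median slope over d1 to d14 was 0.028 against 0.11 for the 37 genes. Slow fibre markers had a median of 1.20 at d3, when the cycle genes had one of -0.055, and neutrophil markers one of 2.35 at d10, the day on which 16 of the 37 genes were highest. The part of these cell types in the results was not tested. In bulk muscle, fewer cells of a type and less RNA per cell cannot be told apart.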

How the data were processed

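The deposited table holds linear intensities, 1 for each transcript cluster on each of 7 arrays. Array medians are nearly equal, as after scaling by the authors. The submitters' processing notes name Partek. How background, summarization and scaling were done, and on which build, is not given in the sources used here. Log2 was taken without a pseudocount (0). Of 35556 rows, 21789 had 1 gene symbol in the platform annotation, 1621 had several and 12146 were not in it. Entrez IDs matched 21698 rows to RefSeq genes of GRCm38.p6, and 0 symbols changed.

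Ratios between days compare 1 array with 1 array and have no test. Two-sided trend tests used limma 3.58.1 (R 4.3.3; lmFit, then eBayes with an intensity trend) over the 12102 kept genes, after the script was tested on simulated data. Python 3.11.15, numpy 2.4.6, pandas 2.3.3 and matplotlib 3.10.9 were used otherwise. All 37 genes could be named, with every array's value for called genes, for the largest and smallest slopes and for subunits of a complex, and of each further list up to 4 genes. Klf15 and Bckdk were added after their values were seen. The genes and lists were chosen with earlier results of these data known. The alternatives concerned the filter, pseudocount, scaling, rows per gene, scale of the day, prior variance, reference array, threshold and each array left out. Detection above background is not given here.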

Additional observations from a re-analysis of the deposited data

How the results depend on the processing

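No paired analysis was possible because each time point is 1 array. The number of the 37 genes called from d1 to d14 (2) was 8 with a filter at percentile 75, 6 with quantile normalization, and 0 with no filter, with the day on a linear scale, with its rank, or without limma's intensity trend. It was 0 to 0 with each array left out, a fit with fewer arrays. The share of all kept genes called under each of these settings is not given here, so the 8 and 6 have no background beside them. From d0 to d14 the count of 0 was 0 to 2 with each array left out. The 2 came without d0, which is the same fit as that from d1 to d14. Genes with a positive slope at an unadjusted p of 0.05 numbered 18 to 27 from d1 to d14 and 11 to 26 from d0 to d14 with each array left out (21 with all). The lowest of the latter, 13, 12 and 11, were without d1, d10 and d14, and the 26 was that same fit without d0. Positive slopes from d1 to d14 numbered 36 or 37 under all alternatives. Apart from the fit without d0 (6.88% of kept genes at that p), the share of all kept genes under these alternatives is not given here. Whether the members' excess over that share changed with an array left out is thus not shown.

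Counts by the rule of size against d0 fell by construction at 1.5-fold, to 1, 1, 1, 1, 2 and 1 on the 6 days, and at 2-fold to 0 on each. With d14 as the reference 8 genes passed at d3, 0 at d7 and 0 at d10. At d1 it was the 12 genes given above as higher at d14 than at d1 (3.43% of kept genes). Set against the mean of the 6 others, the counts from d3 to d14 were 1, 0, 0, 3 and 2. Quantile normalization gave 6 at d10 in place of 10, and the cause was not tested. Apart from that 3.43%, the share of all kept genes under these alternatives is not given here, so the counts have no background beside them.

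Group medians moved by more than the robust SD between arrays under a change of reference only. Against d14, cycle genes at d10 had a median of -0.013, pyruvate entry genes -0.076, -0.023 and 0.067 at d3, d7 and d10, and branched-chain genes -0.27, -0.15, -0.067 and 0.040 at d3, d5, d7 and d10. Against the mean of the 6 others pyruvate entry stood at -0.046, 0.12 and 0.043 at d3, d10 and d14. No called slope reversed. There is 1 array per day, and intensity over background is not known per gene.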

Other observations

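The acyltransferase cores of the 3 related dehydrogenase complexes, Dlat, Dlst and Dbt, all lay above d0 on each of the 6 later days, a course shared by 39% of kept genes and by 7 of the 37 genes described here. The grouping was made after the values were seen. At d1 the cores stood at 0.35, 0.12 and 0.0041 against d0 on the log2 scale. The decarboxylase genes of the same complexes stood at 0.13 and 0.39 (Pdha1 and Pdhb), 0.022 (Ogdh), and -0.37 and -0.42 (Bckdha and Bckdhb).

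Of the 4 assembly factors of succinate dehydrogenase, Sdhaf1, Sdhaf2 and Sdhaf4 stood above d0 on every later day and Sdhaf3 on 2 of 6. Among all kept genes 39% stood above d0 on every later day. Their ratios to d0 were 0.048 to 0.34 for Sdhaf1, -0.13 to 0.093 for Sdhaf3, 0.28 to 0.49 for Sdhaf2 and 0.33 to 0.71 for Sdhaf4 on the log2 scale. For Sdhaf4 this holds only for the row used, which was highest at d10. A second, dimmer row of Sdhaf4 (mean log2 intensity 6.83 against 7.81) was below d0 at d10, at 6.37 against 6.77. Me3, a mitochondrial malic enzyme, lay below d0 on all 6 days, as 7.68% of kept genes did, between -0.59 at d5 and -0.31 at d14. Pdp1, the catalytic subunit of the pyruvate dehydrogenase phosphatase, did so between -0.38 at d1 and -0.24 at d3. Each of these differences rests on the d0 array. These genes were chosen after their values were seen.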
